A study of Rattus norvegicus with 4 samples.

Results

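Transcripts of 8 genes of the PI3K, Akt and mTOR pathway (*Akt1*, *Akt2*, *Pik3ca*, *Pik3cb*, *Mtor*, *Rptor*, *Rictor* and *Tsc2*) were followed in rat embryonic stem cells with and without targeted *Thop1*. The genes were taken by their symbol, and each matched 1 of the 34773 genes of the table. RNA-seq was performed on 1 library of WT cells and on 1 library of each of 3 *Thop1*-KO subclones (#1, #2 and #3). *Thop1* encodes thimet oligopeptidase, an enzyme that cuts short peptides inside cells. According to the methods of the study, WT is the rat line DA-5-3 with a *Rex1*-GFP reporter, and the subclones were derived from it with Cas9, so both genotypes carry the reporter. DA-5-3 is a diploid line in those methods, whereas the deposited design text calls the sequenced cells haploid. Rat embryonic stem cells were grown on feeder cells in medium with PD0325901 (a MEK inhibitor), CHIR99021 (a GSK3 inhibitor) and LIF.

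In this pathway, growth factor receptors recruit class I PI3K, whose catalytic subunits (p110α from *Pik3ca*, p110β from *Pik3cb*) make the membrane lipid that brings Akt kinases to the membrane. Akt phosphorylates and restrains tuberin, the product of *Tsc2*, which otherwise keeps the small GTPase Rheb inactive. Rheb activates the mTOR kinase in complex with raptor (*Rptor*), the complex that promotes protein synthesis and restrains autophagy. The complex of mTOR with rictor (*Rictor*) phosphorylates Akt. In embryonic stem cells the pathway is known for its part in growth, survival and self-renewal. Transcript levels do not measure the phosphorylation by which these kinases signal.

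The counts on genes summed to between 15405499 and 17936544 per library. *Thop1* itself was at 110, 92.5 and 149 CPM (counts scaled to a common library size with edgeR's TMM factors) in #1, #2 and #3 and at 370 in WT. By edgeR's quasi-likelihood test the log2 fold change was -1.66 (standard error, SE, 0.29), with an adjusted p of 0.0187, so transcripts of the targeted gene were reduced but present. Of 10 markers of naive embryonic stem cells, 9 were matched by symbol. Of these, 3 rose in *Thop1*-KO and none fell, against 8.62% and 5.17% of all 15028 genes tested. *Esrrb* was at 330, 286 and 328 CPM in #1, #2 and #3 and at 15.9 in WT (log2 fold change 4.30), and *Tfcp2l1* and *Fgf4* had log2 fold changes of 2.89 and 3.37, each of the 3 with an adjusted p of 0.00678 by edgeR. The other 6, among them *Pou5f1*, *Nanog* and *Sox2*, did not pass. Summed over the list, the level was 7174, 6162 and 7064 CPM in the subclones and 6094 in WT, most of it *Pou5f1* (3889 to 4842 CPM in the subclones, 4794 in WT). Of 10 fibroblast markers, a usual kind of feeder cell, 9 were matched. *Dcn*, *Lum* and *Thy1* had 0 counts in all 4 libraries, while the 9 summed to 327, 667 and 421 CPM in #1, #2 and #3 and to 209 in WT, most of it *Col1a1*. The 9 primitive endoderm markers summed to 1225, 1369 and 1787 CPM in the subclones and 856 in WT. Most of it was *Lama1* (1215, 1361 and 1779 CPM in #1, #2 and #3 and 848 in WT). The 7 trophoblast markers summed to 449, 226 and 306 CPM and 175 in WT. Most of it was *Tfap2c* (436, 173 and 291 CPM and 140 in WT). The remaining tested genes of both lists had fold changes in both directions. Of the fibroblast, primitive endoderm and trophoblast lists, 6, 7 and 4 markers were tested. None was called by edgeR, against 13.8% of all genes tested, and with so few markers nothing is read from that count. The part of these cells in the results below was not tested, and in bulk RNA fewer cells of a type and less RNA per cell cannot be told apart. Since WT is a single library, the genotype and any difference of that culture or library preparation cannot be told apart either.

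All 8 genes were detected in every library, and 7 of the 8 were lowest in WT. *Akt2* alone passed the test, rising 4.60-fold from WT to the mean of the *Thop1*-KO subclones. The 7 genes below all 3 subclones in WT were *Akt1*, *Akt2*, *Pik3cb*, *Mtor*, *Rptor*, *Rictor* and *Tsc2*, while *Pik3ca* was above all 3. Among all 15028 genes tested, WT was below all 3 subclones in 38.1% and above them in 37.6%. A gene was called when its adjusted p was under 0.05 (edgeR's quasi-likelihood test, Benjamini-Hochberg adjustment over the 15028 genes). By that rule 1 of the 8 was called, against 13.8% of the genes tested, of which 8.62% were higher and 5.17% lower in *Thop1*-KO. At an unadjusted p under 0.05 it was 6 of the 8, against 34.0%. The median log2 fold change was 0.95 over the 8 genes and 0.06 over all genes tested. DESeq2's Wald test called 4 of the 8, namely *Akt2*, *Mtor*, *Pik3cb* and *Rptor*, against 21.5% of the genes to which it gave an adjusted p. With library size only, edgeR called 2 of the 8 (*Akt2* and *Rptor*) against 13.6% of all genes. The count rested on single libraries, since without #2 the edgeR test called 6 of the 8 against 37.9% of all genes, and without #3 it called 0 of the 8 against 3.10%, with 4 at an unadjusted p under 0.05 against 21.7%.

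**Figure D1:**
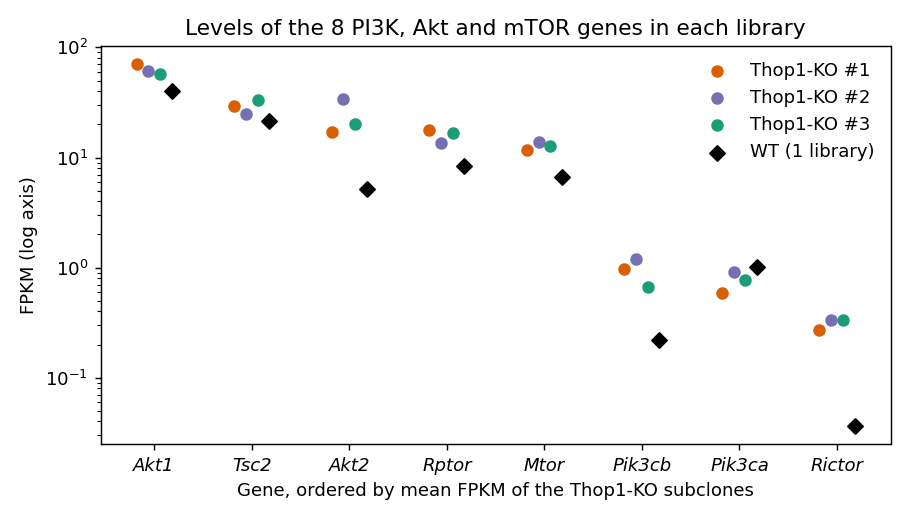
FPKM (fragments scaled by gene length and library size, log axis) of the 8 genes in each of the 4 libraries, circles for the *Thop1*-KO subclones and diamonds for the single WT library. WT lies under every subclone except for *Pik3ca*, and *Rictor* is lowest of the 8 in each library.

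Since FPKM is scaled by gene length, it allows levels of different genes to be set side by side. *Akt1* was the most abundant of the 8 in each library, at 62.9 ± 6.86 FPKM (SD, n = 3 subclones) and 40.6 in WT. *Tsc2* followed at 29.3 ± 4.36 (SD, n = 3) and 21.5 in WT, *Akt2* at 23.7 ± 9.00 (SD, n = 3) and 5.15, *Rptor* at 16.0 ± 2.13 (SD, n = 3) and 8.33, and *Mtor* at 12.8 ± 1.14 (SD, n = 3) and 6.60. The ranges over the subclones overlapped between *Tsc2* and *Akt2*, between *Akt2* and *Rptor* and between *Rptor* and *Mtor*, so these neighbours were not separated beyond their spread. Both PI3K catalytic genes lay far lower, *Pik3cb* at 0.945 ± 0.266 FPKM (SD, n = 3) and *Pik3ca* at 0.755 ± 0.167 (SD, n = 3), again with overlapping ranges. *Rictor* was the least abundant at 0.314 ± 0.0382 (SD, n = 3) and 0.0363 in WT. In WT, 84.9% of the genes tested were below *Akt1* in FPKM and 3.57% were below *Rictor*.

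Upstream sequence is shown because several of the 8 genes were lower together in WT. Of the 8 genes, 6 were matched in RefSeq's promoter table of the assembly GRCr8, and the 120 bases just before the annotated start are printed for *Akt2*, the called gene, for *Mtor* and *Rictor*, which share a complex, and for *Tsc2*, the inhibitor. Capitals mark matches of the motifs searched in the 250 bases before the start, on both strands. The GC box, which Sp1 and its relatives bind, was searched as GGGCGG, and the E box of basic helix-loop-helix factors as CACGTG. For ETS factors the letters were CCGGAAG, and for Foxo factors, themselves targets of Akt, they were GTAAACA. Those for Esrrb, a receptor of the naive pluripotency network, were TCAAGGTCA, and the TATA box was searched as TATAAA. No motif of this list contains another.
Akt2 (chr1:92021797-92021916, plus strand): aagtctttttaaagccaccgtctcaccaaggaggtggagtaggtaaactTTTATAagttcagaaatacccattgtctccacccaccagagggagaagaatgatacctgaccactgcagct
Mtor (chr5:164167865-164167984, plus strand): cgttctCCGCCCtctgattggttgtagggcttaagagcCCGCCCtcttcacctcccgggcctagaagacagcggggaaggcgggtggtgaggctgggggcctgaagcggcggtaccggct
Rictor (chr2:57539159-57539278, plus strand): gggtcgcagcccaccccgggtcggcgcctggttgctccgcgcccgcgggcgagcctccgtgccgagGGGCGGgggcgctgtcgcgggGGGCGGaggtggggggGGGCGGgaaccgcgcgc
Tsc2 (chr10:14160240-14160359, minus strand): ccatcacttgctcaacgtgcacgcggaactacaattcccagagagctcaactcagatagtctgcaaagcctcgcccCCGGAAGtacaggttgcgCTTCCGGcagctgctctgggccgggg

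The GC box stood in the 250 bases of *Mtor* (4 matches), *Rictor* (4) and *Tsc2* (1), and in 30.5% of the 33469 promoters of the table. *Tsc2* held 2 matches of the ETS core, which 7.27% of all promoters hold, and the 120 bases above show both. The TATA letters were in *Akt2* and in 12.9% of all promoters, and the Foxo letters in *Pik3ca* and in 3.21%. No match to the E box (5.59% of all promoters) or to the Esrrb letters (0.388%) was in these windows of the 6 genes. GC content of the 250 bases was 38.8% for *Pik3ca*, 48.4% for *Akt2*, 54.8% for *Akt1*, 56.8% for *Mtor*, 64.0% for *Tsc2* and 80.4% for *Rictor*, with a median of 51.2% over all promoters. Of the matched genes lower in WT, *Mtor*, *Rictor* and *Tsc2* held a GC box in these windows, and *Akt1* and *Akt2* did not. The letters describe these windows only, and the part of any motif in the levels was not tested.

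*Akt1* and *Akt2* encode closely related kinases that receive the PI3K signal. *Akt2* (ENSRNOG00000018677, chromosome 1 from 84411726 to 84450162 on the plus strand of the deposited annotation, whose build is not given in the sources used here) was counted 568, 1204 and 737 times in #1, #2 and #3 and 154 times in WT. Scaled to CPM, these were 33.9, 68.1 and 41.0 in the subclones and 10.4 in WT. Every subclone was more than 3 times as high as WT, and #2 stood above the other 2. The log2 fold change of *Akt2* was 2.20 (SE 0.49, 95% interval 1.03 to 3.38, adjusted p = 0.0347 by edgeR's quasi-likelihood test). The call was lost without #3, with an adjusted p of 0.0719 by edgeR, and was made in each of the other 11 alternative settings. Its coefficient of variation over the subclones was 37.9%, the largest of the 8 genes, where the median over 12544 genes with at least 1 CPM was 20.3%. The subclone with most *Akt2*, #2, also had the highest sum of the fibroblast markers (667 CPM), whose part in this spread was not tested.

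*Akt1* (ENSRNOG00000028629, chromosome 6, 137218376 to 137236258, minus strand) was at 172, 148 and 143 CPM in the subclones and at 99.5 in WT, from 2885, 2621, 2566 and 1479 counts. The subclones lay close to each other and all above WT. The log2 fold change was 0.63 (SE 0.25, 95% interval 0.04 to 1.23) and did not pass, with an adjusted p of 0.130 by the same edgeR test. Without #2 *Akt1* passed, with an adjusted p of 0.0317 by edgeR.

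Per length, *Akt1* made up 88.7% of the summed FPKM of *Akt1* and *Akt2* in WT and 80.6%, 64.1% and 74.1% in #1, #2 and #3. *Akt2* made up 11.3% in WT and 19.4%, 35.9% and 25.9% in the subclones. The share of *Akt2* was thus higher in each subclone than in WT, while *Akt1* was the larger of the pair in every library. The sum of the pair was 87.6, 94.4 and 77.7 FPKM in the subclones and 45.8 in WT. Within a library, a ratio of 2 genes does not depend on library scaling. It does not cancel the shift of fold changes with gene length that is given below. The log2 ratio of *Akt1* to *Akt2* counts was 1.76 ± 0.61 (SD, n = 3 subclones) and 3.26 in WT, a difference of -1.51. The exact permutation test of 1 library against 3 (two-sided) gave p = 0.25, the smallest that this design allows.

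**Figure D2:**
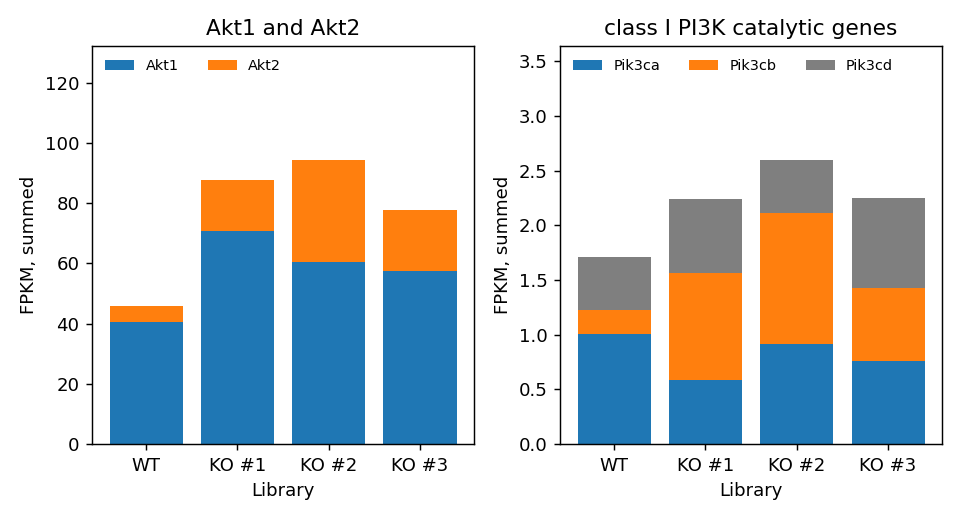
Summed FPKM of *Akt1* and *Akt2* (left) and of the class I PI3K catalytic genes (right) in each library, stacked by gene, with *Pik3cg* left out because it has 0 counts. *Akt1* is the larger part of its sum in all 4 libraries, whereas *Pik3ca* is the largest part of the catalytic sum in WT and in no subclone.

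The fold changes of *Pik3cb* and *Pik3ca*, which encode the catalytic subunits p110β and p110α, were of opposite sign, and neither passed the test. *Pik3cb* (ENSRNOG00000016384, chromosome 8, 107275725 to 107380933, minus strand) had 80, 103 and 59 counts in #1, #2 and #3 and 16 in WT, or 4.77, 5.83, 3.28 and 1.08 CPM. All 3 subclones were above WT. Its log2 fold change of 2.10 (SE 0.60, 95% interval 0.67 to 3.52) came with an adjusted p of 0.0624 by edgeR's quasi-likelihood test and did not pass. DESeq2 gave an adjusted p of 0.0305, and edgeR without #2 gave 0.0258, so both of these called *Pik3cb*. On the log2(FPKM + 1) scale of limma, which understates changes of low genes, the log2 difference of *Pik3cb* was 0.66.

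*Pik3ca* (ENSRNOG00000056371, chromosome 2, 118831350 to 118861454, plus strand) was counted 63, 105 and 90 times in the subclones and 97 times in WT, or 3.76, 5.94, 5.01 and 6.53 CPM. WT was the highest of the 4 libraries by a small margin over #2. The log2 fold change was -0.41 (SE 0.43, 95% interval -1.44 to 0.62, adjusted p = 0.526 by the same edgeR test), and no setting called it. The log2 ratio of *Pik3ca* to *Pik3cb* counts was 0.10 ± 0.48 (SD, n = 3) in the subclones and 2.60 in WT, a difference of -2.50 with p = 0.25 in the exact permutation test. Per length, *Pik3ca* made up 58.8% of the class I catalytic sum in WT and 26.0%, 35.3% and 33.9% in #1, #2 and #3. *Pik3cb* made up 12.8% in WT and 43.7%, 45.8% and 29.4% in the subclones. *Pik3cd*, which encodes p110δ, made up the rest, with 55, 42, 73 and 35 counts in #1, #2, #3 and WT, a log2 fold change of 0.46 (SE 0.54, adjusted p = 0.576 by edgeR). *Pik3cg* was listed at 0 in all 4 libraries.

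*Mtor* (ENSRNOG00000009615, chromosome 5, 165263800 to 165373967, plus strand), the kinase shared by both complexes, was at 102, 123 and 113 CPM in #1, #2 and #3 and at 58.1 in WT. These rested on 1712, 2167 and 2026 counts in the subclones and 863 in WT. The subclones varied least for this gene (coefficient of variation 9.11%), and each was well above WT. The log2 fold change of 0.95 (SE 0.26, 95% interval 0.33 to 1.57) missed the threshold, with an adjusted p of 0.0562 by edgeR's quasi-likelihood test. *Mtor* was called by DESeq2 (adjusted p = 0.0242) and by edgeR without #2 (adjusted p = 0.00943).

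*Rptor* (ENSRNOG00000003821, chromosome 10, 108750620 to 109058691, plus strand), which recruits the substrates of the first complex, was at 120, 92.8 and 114 CPM in the subclones and at 56.6 in WT. Again no subclone came near WT. Its log2 fold change of 0.95 (SE 0.28, 95% interval 0.28 to 1.61) had an adjusted p of 0.0671 by the same edgeR test. *Rptor* was called by DESeq2 (adjusted p = 0.0312), by edgeR with library size only (0.046) and by edgeR without #2 (0.00336).

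*Rictor* (ENSRNOG00000011341, chromosome 2, 56052643 to 56101803, plus strand), which defines the second complex, had 25, 33 and 34 counts in #1, #2 and #3 and 3 in WT. All 4 values are small, but no subclone overlapped WT. The ratio of the subclones to WT was 8.69, with an exact 95% interval of 2.88 to 42.9 that covers counting error only. Its log2 fold change of 3.07 (SE 0.85) had an adjusted p of 0.0582 by edgeR's quasi-likelihood test. *Rictor* was called without #2 (adjusted p = 0.0344 by edgeR) and not by DESeq2 (adjusted p = 0.0619). In limma on log2(FPKM + 1) its log2 difference was 0.34, with a pseudocount above its FPKM in every library. The log2 ratio of *Rptor* to *Rictor* counts was 5.96 ± 0.35 (SD, n = 3) in the subclones and 8.13 in WT, a difference of -2.17 with p = 0.25 in the exact permutation test. In FPKM, *Rptor* was 66.0, 40.7 and 49.6 times *Rictor* in #1, #2 and #3 and 229.7 times in WT, where the 3 *Rictor* counts make the value coarse.

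*Tsc2* (ENSRNOG00000011375, chromosome 10, 13961947 to 13996584, minus strand), the GTPase-activating inhibitor upstream of Rheb, showed the smallest of the 7 positive fold changes. It was at 171, 144 and 197 CPM in the subclones and at 125 in WT, from 2866, 2547, 3542 and 1857 counts. The lowest subclone, #2, was only slightly above WT. The log2 fold change of *Tsc2* was 0.45 (SE 0.27, 95% interval -0.19 to 1.09, adjusted p = 0.276 by edgeR's quasi-likelihood test), and no setting called it. *Tsc2* was the only gene of the 8 that overlapped another expressed gene, sharing 62 bases with *Pkd1* on the other strand. The log2 ratio of *Mtor* to *Tsc2* counts was -0.59 ± 0.31 (SD, n = 3) in the subclones and -1.11 in WT (difference 0.51, p = 0.50 in the exact permutation test). For *Akt1* to *Mtor* the ratio was 0.46 ± 0.26 (SD, n = 3) and 0.78 in WT (difference -0.32, p = 0.50 in the same exact test). Here WT lay next to #1 (0.75).

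**Figure D3:**
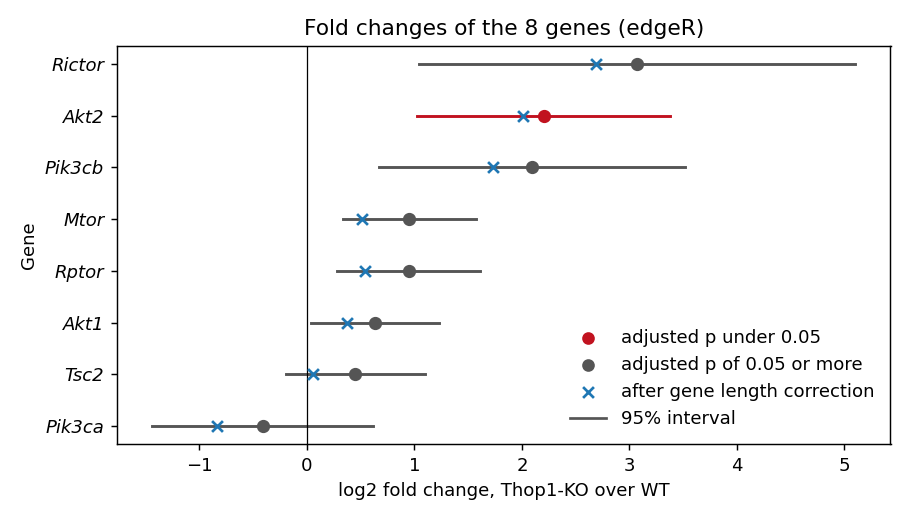
Log2 fold changes of *Thop1*-KO over WT for the 8 genes with 95% intervals from edgeR's quasi-likelihood test (filled points and lines), and the same estimates after a correction for gene length (crosses). Only *Akt2* is called, and each cross lies left of its point.

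The fold changes of all genes moved with gene length, and 6 of the 8 genes are long. The median log2 fold change was -0.47 over the 2799 tested genes of up to 1 kb, -0.08 between 1 and 2 kb, 0.20 between 2 and 4 kb, 0.38 between 4 and 6 kb and 0.44 over the 859 genes above 6 kb. *Pik3cb*, *Rictor* and *Tsc2* lie between 4 and 6 kb, and *Pik3ca*, *Mtor* and *Rptor* are above 6 kb. When each library was corrected for gene length by a loess fit, the log2 fold change became 0.51 for *Mtor*, 0.54 for *Rptor*, 0.37 for *Akt1* and 0.06 for *Tsc2*, with adjusted p-values of 0.207, 0.265, 0.355 and 0.904 by edgeR. *Rictor* stayed at 2.68, *Pik3cb* at 1.73 and *Akt2* at 2.01, the last with an adjusted p of 0.0430 by edgeR, while *Pik3ca* went to -0.83 (adjusted p = 0.189). With this correction edgeR called 1 of the 8 genes against 13.5% of all genes tested. The median over the 8 genes was 0.52 and that over all genes tested -0.09. Against that median of -0.09, *Tsc2* lay close, *Akt1*, *Mtor* and *Rptor* lay above it by less than 1 log2 unit, and *Akt2*, *Pik3cb* and *Rictor* lay furthest above. The within-library ratios and FPKM shares, here and below, set genes of unlike length side by side and were not corrected in this way. *Akt1* (2418 bases) and *Mtor* (8680 bases) lay closer with the correction, at 0.37 and 0.51, than without it, at 0.63 and 0.95. The part of gene length in the differences was not tested beyond this correction.

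**Figure D4:**
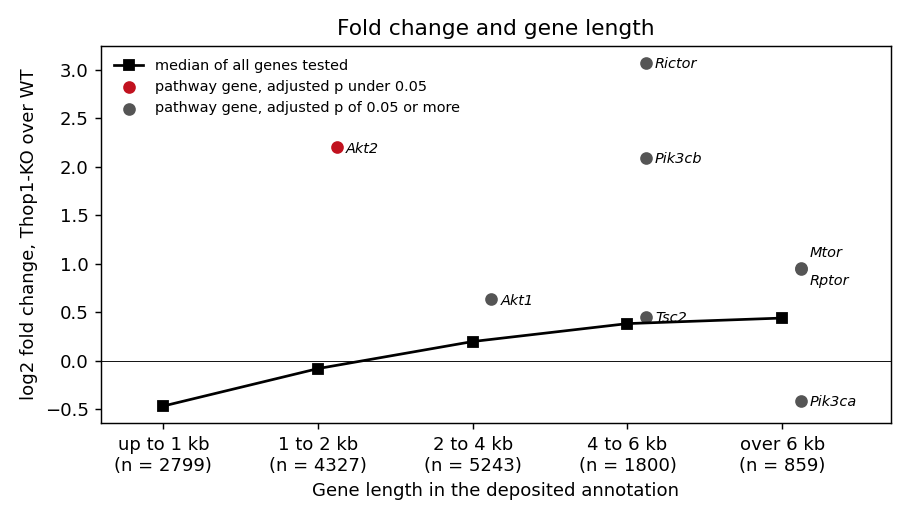
Median log2 fold change of all genes tested in 5 classes of gene length (black squares, number of genes under each class) with the 8 genes as points. The black line rises from -0.47 to 0.44, *Tsc2* lies near it, and *Rictor*, *Akt2* and *Pik3cb* lie at 2.10 or more.

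Across the rest of the pathway, 95 further genes were listed by role, 91 were matched by symbol and 82 had enough counts to be tested. Of these, 17 rose and 1 fell in *Thop1*-KO, together 22.0% against the 13.8% of all genes tested, and 64 did not pass. The median log2 fold change was 0.48. After the gene length correction 13 of the 18 were still called, those lost being *Phlpp2*, *Pdpk1*, *Igf1r*, *Ddit4* and *Foxo4*, and the median was 0.18. DESeq2 called 28 of the 80 genes to which it gave an adjusted p, against 21.5% of all genes. Without #3, edgeR called 8 of 81 list genes against 3.10% of all genes, all 8 among the 18, and without #2 it called 39 of 81 against 37.9%. For the role lists that follow, the shares over all genes tested are 8.62% higher and 5.17% lower, 34.0% at an unadjusted p under 0.05 and 21.5% by DESeq2, and with 4 to 25 tested genes a list nothing particular to a list is read from its count.

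Upstream of PI3K, 2 of 7 tested receptor and adaptor genes rose, against 8.62% of all genes, and none fell. *Gab1*, an adaptor that carries PI3K to receptors, was at 58.3, 64.9 and 75.4 CPM in #1, #2 and #3 and at 9.42 in WT, a log2 fold change of 2.81 (SE 0.33, adjusted p = 0.00767 by edgeR). *Igf1r*, the IGF1 receptor, was at 30.4, 25.2 and 26.9 CPM and at 11.6 in WT, with a log2 fold change of 1.25 just inside the threshold (adjusted p = 0.0498 by edgeR). *Igf1r* lost the call without #1 (adjusted p = 0.0807) and without #3 (0.20). *Gab2* had the largest fitted change of these 7 genes on 0, 10, 6 and 0 counts in #1, #2, #3 and WT, too few to give a fold. Among the 10 tested PI3K subunits and lipid kinases other than *Pik3ca* and *Pik3cb*, edgeR called 0 against 13.8% of all genes, with 4 at an unadjusted p under 0.05 against 34.0%, and DESeq2 called 2 against 21.5%, so these counts were near the background. *Pik3r2*, which encodes the regulatory subunit p85β and was the main one in FPKM (90.2% to 94.2% of the sum over the subclones, 93.5% in WT), was at 86.0 ± 13.0 CPM (SD, n = 3) and 97.1 in WT. *Pik3r5* was counted 3, 21 and 8 times in the subclones and 0 times in WT, at least 2.99-fold higher against a floor of 3 counts in the WT library.

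Of the 7 tested lipid and Akt phosphatases, which oppose the PI3K signal, 3 rose, against 8.62% of all genes, and none fell. *Inppl1* (SHIP2, which removes a phosphate from the PI3K product) was at 34.2, 21.2 and 27.3 CPM in the subclones and at 1.28 in WT, a log2 fold change of 4.42 (SE 0.51, adjusted p = 0.00724 by edgeR). *Inpp4a*, which acts on the next lipid of the route, was at 17.9 ± 4.47 CPM (SD, n = 3) and 1.14 in WT, and *Phlpp2*, an Akt phosphatase, at 8.25 ± 2.03 (SD, n = 3) and 1.75. The calls of *Inppl1* and *Inpp4a* were made with each subclone left out, while *Phlpp2* lost its call without #3 (adjusted p = 0.0959 by edgeR). *Pdpk1*, the kinase that phosphorylates Akt in its activation loop, rose with a log2 fold change of 1.35 (39.5 ± 6.46 CPM, SD, n = 3, and 15.5 in WT, adjusted p = 0.0443 by edgeR), a call lost without #1 (0.0621) and without #3 (0.178). *Sgk3*, a kinase related to Akt, had the largest fitted change of the 4 tested kinase genes, on 27, 29, 68 and 12 counts in #1, #2, #3 and WT, but did not pass (log2 fold change 1.53, SE 0.81, adjusted p = 0.226 by edgeR).

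Around *Tsc2*, 3 of 5 tested genes of the TSC complex and Rheb rose, against 8.62% of all genes, and none fell. *Tsc1* (hamartin) was at 27.4, 23.3 and 29.9 CPM in the subclones and at 4.84 in WT, a log2 fold change of 2.47 (SE 0.37, adjusted p = 0.0132 by edgeR). *Tbc1d7*, the other subunit of the complex, rose with a log2 fold change of 2.25 (4.18 ± 0.343 CPM, SD, n = 3, and 0.875 in WT), and *Ddit4* (REDD1, a stress-induced inhibitor of the first mTOR complex) with 1.35 (103 ± 21.1 and 40.7). Per length, *Tsc1* made up 17.9%, 17.7% and 17.4% of the sum of the 3 subunits in #1, #2 and #3 and 5.36% in WT. Without #3, edgeR gave adjusted p-values of 0.0596 for *Tsc1*, 0.162 for *Tbc1d7* and 0.158 for *Ddit4*, and without #1, 0.0532 for *Tbc1d7*. *Rheb* and *Rhebl1* did not pass, with log2 fold changes of -0.18 and -0.13.

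Of 8 tested partners of mTOR in its complexes, edgeR called 0 against 13.8% of all genes, with 2 at an unadjusted p under 0.05 against 34.0%, and DESeq2 called 1 against 21.5%, none of them above the background. *Akt1s1* (PRAS40, an Akt substrate that restrains the raptor complex) had the largest fitted difference, at 62.0, 132 and 95.3 CPM in #1, #2 and #3 and 203 in WT, a log2 fold change of -1.08 (SE 0.38, adjusted p = 0.103 by edgeR). It was the gene that DESeq2 called (adjusted p = 0.0438). *Mlst8*, a subunit of both complexes, and *Mapkap1* (Sin1), which belongs to the rictor complex, had log2 fold changes of 0.29 and 0.09. FPKM was summed over *Mtor*, *Rptor*, *Rictor*, *Mlst8*, *Mapkap1*, *Akt1s1*, *Deptor* and *Prr5*. *Mtor* and *Rptor* made up 9.75% and 14.9% of the sum in #1, 9.09% and 8.91% in #2 and 9.50% and 12.5% in #3. In WT they made up 3.59% and 4.54%. *Akt1s1* made up 69.1% in WT and 32.5%, 53.6% and 44.1% in #1, #2 and #3, the largest part in each library.

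In the branch that brings amino acid supply to mTOR, 2 of 25 tested genes rose and none fell, near the 8.62% and 5.17% of all genes, and the median log2 fold change of 0.03 was close to that of all genes tested. *Fnip2*, the partner of folliculin, was at 48.2, 27.2 and 79.0 CPM in the subclones and 5.25 in WT (log2 fold change 3.29, SE 0.69, adjusted p = 0.0288 by edgeR). *Wdr59*, a subunit of GATOR2, was at 39.5, 24.7 and 33.3 CPM and 5.05 in WT (log2 fold change 2.69, SE 0.43, adjusted p = 0.0149 by edgeR). The other 23 tested genes of this branch did not pass.

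Among 16 tested targets of Akt and mTOR, 6 rose and 1 fell, against 8.62% and 5.17% of all genes. *Foxo1*, *Foxo3* and *Foxo4* encode transcription factors that Akt keeps out of the nucleus, and all 3 rose. *Foxo1* was at 77.2, 47.9 and 64.5 CPM in #1, #2 and #3 and at 7.60 in WT, a log2 fold change of 3.05 (SE 0.41, adjusted p = 0.00972 by edgeR), against 1.67 for *Foxo3* and 1.43 for *Foxo4*. The Foxo sum was 67.9, 47.4 and 61.4 FPKM in the subclones and 14.7 in WT. *Gsk3a*, the kinase that Akt inhibits and CHIR99021 also targets, rose from 58.7 CPM in WT to 168 ± 29.6 (SD, n = 3), whereas *Gsk3b* did not pass (log2 fold change -0.45, SE 0.31). *Gsk3a* (3316, 2449, 2989 and 873 counts in #1, #2, #3 and WT) overlaps *Zfp526* on the other strand (337, 335, 444 and 23 counts). The part of *Zfp526* reads in the *Gsk3a* counts was not tested. Without #3, *Foxo3* (adjusted p = 0.104 by edgeR), *Foxo4* (0.143) and *Gsk3a* (0.0930) lost their calls. *Eif4ebp2*, a repressor of cap-dependent translation that mTOR inactivates, was at 269, 138 and 187 CPM and 35.9 in WT, a log2 fold change of 2.46 (SE 0.44), while its relative *Eif4ebp1* had -0.88 (adjusted p = 0.0744 by edgeR). *Lpin1*, a phosphatidate phosphatase under mTOR control, rose with a log2 fold change of 3.43 (10.2 ± 1.30 CPM, SD, n = 3, and 0.942 in WT).
*Tfeb*, the transcription factor of lysosomal genes that mTOR keeps in the cytoplasm, was the only gene of the list called lower, at 423, 522 and 496 CPM in the subclones and 937 in WT (log2 fold change -0.96, SE 0.21, adjusted p = 0.0335 by edgeR). Without #3 its adjusted p was 0.138.

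**Figure D5:**
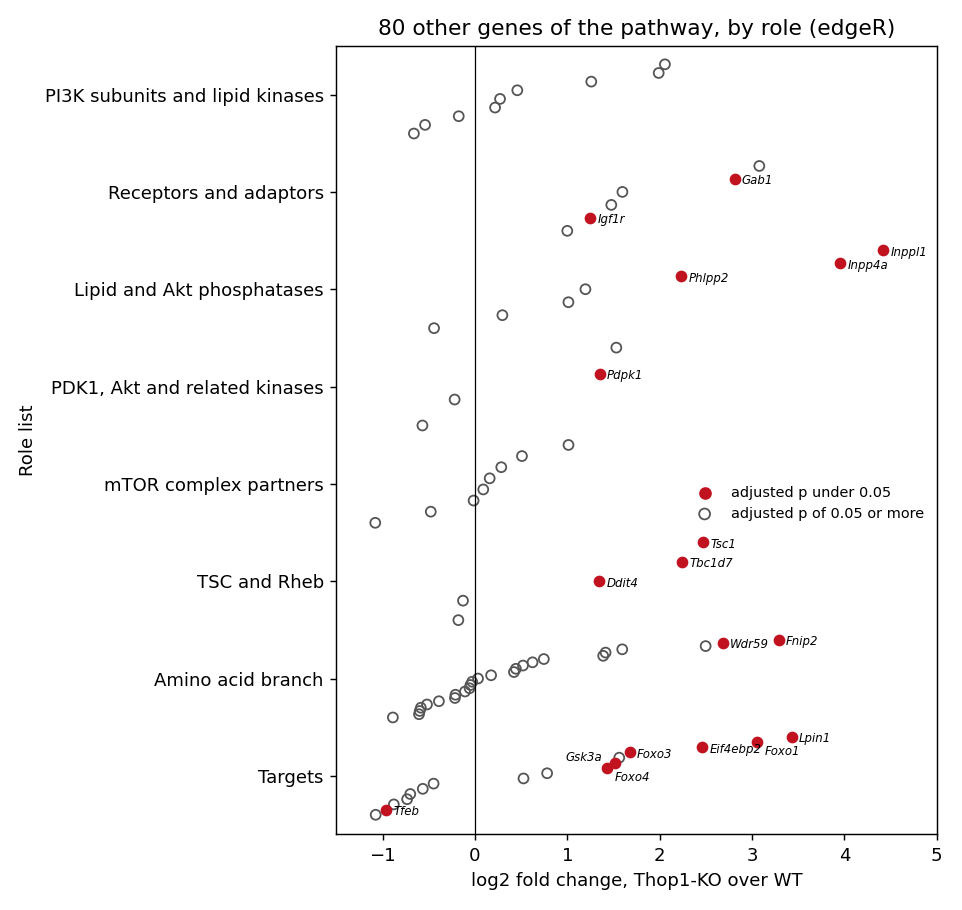
Log2 fold changes of *Thop1*-KO over WT for 80 tested pathway genes in 8 role lists, filled and named where edgeR's adjusted p was under 0.05. *Gab2* and *Pik3r5*, with 0 counts in WT, are not drawn. *Tfeb* is the only named gene left of 0, and no gene of the PI3K subunit and mTOR partner lists is named.

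Genes with the most similar profile were sought for *Akt1* and *Mtor* over the 4 libraries, by the distance between log2 CPM values centred on each gene's mean among 7391 genes of at least 10 CPM with a symbol. The nearest to *Akt1* were *Tpd52l2*, *Lrrc59* and *Pi4ka*, at distances of 0.05, 0.05 and 0.06. For *Mtor* they were *Tyk2*, *Atp2a2* and *Tgfbrap1*, at 0.05, 0.06 and 0.06. With 4 libraries many genes have similar profiles, and at a wider distance of 0.2 there were 140 genes around *Akt1* and 62 around *Mtor*. Between the 8 genes themselves, the closest profiles were those of *Akt1* and *Rptor*, at 0.37.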

How the data were processed

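For 4 poly(A) libraries the authors cleaned reads of adaptors and noise (FASTX toolkit), and they deposited raw counts per gene beside FPKM. The submitters' processing notes name HISAT2 2.0.5 and featureCounts 1.5.0-p3. The genome build and the strand setting are not given in the sources used here, so reads of overlapping genes on opposite strands may be mixed. A deposited FPKM value is the count over gene length, rescaled within each library by a single factor. These factors were 16.9, 17.9, 18.4 and 15.1 in #1, #2, #3 and WT. They ordered the libraries as DESeq2's size factors did (1.01, 1.07, 1.10 and 0.897) and not as the total counts did.

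The analysis of counts used edgeR 4.0.16 (R 4.3.3), with filterByExpr (minimum count 10), TMM scaling, the quasi-likelihood test and Benjamini-Hochberg adjustment over 15028 genes. The spread comes from the 3 subclones alone. Depth was 15405499 to 17936544 counts per library, and intervals from counts cover counting error only. No pair of libraries agreed within sampling noise. Alternatives were other scalings, other filters, DESeq2 1.42.0, limma 3.58.1 on log2 FPKM (pseudocount 1 or 0.1), gene length corrected by loess (span 0.3), a fold of 2 added to the call rule, and leaving out each subclone. The test was tested on simulated data. A p that missed the threshold does not show that levels were equal. Whether the subclones were cultured separately is not given in the sources used here. The p-values rest on the spread between the 3 subclone libraries, to which the single WT library adds nothing.

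The 8 genes and the lists were chosen with earlier results of these data known. Named are the 8 genes, *Thop1*, every called gene of the pathway list, the tested gene with the largest change of each role, close partners, and the 3 nearest profiles of *Akt1* and *Mtor*. A few further genes of the lists (*Pik3r2*, *Rheb*, *Rhebl1*, *Mlst8*, *Mapkap1*, *Gsk3b*, *Eif4ebp1*) were added after their values were seen. Some genes of the lists are not reported here. Promoter letters come from RefSeq on GRCr8. Other tables and figures used Python 3.11.15, pandas 2.3.3, scipy 1.17.1 and matplotlib 3.10.9.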

Additional observations from a re-analysis of the deposited data

How the results depend on the processing

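The numbers of genes called by edgeR's quasi-likelihood test changed most with the libraries used. Leaving out 1 subclone at a time, the number ran from 457 to 5572 over all genes, from 0 to 6 over the 8 genes and from 8 to 39 over the pathway list, against 2072, 1 and 18 with all libraries. The low ends came without #3 and the high ends without #2. DESeq2 called 4 of the 8 genes and 28 of the pathway list, and library size only in edgeR called 2 of the 8. The cause was not tested. In the other settings run, these counts stayed within 1.5 times of the value with all libraries. None of the 8 log2 fold changes turned its direction in any setting, but sizes moved: *Rictor* ran from 0.34 to 3.18, *Pik3cb* from 0.66 to 2.29, *Mtor* from 0.51 to 1.03, *Rptor* from 0.54 to 1.05, *Akt1* from 0.37 to 0.70, *Tsc2* from 0.06 to 0.56, *Pik3ca* from -0.83 to -0.20 and *Akt2* from 1.85 to 2.41. The low ends of *Rictor* and *Pik3cb* came with log2(FPKM + 1). Of their 95 values in the alternatives, 85 kept their side of the threshold, 9 passed it newly and 1 lost it. *Rictor* had no value where at least 10 counts were required in every library. No paired analysis was possible because WT has 1 library. At 3 to 34 counts, *Rictor* is the gene whose size of change the depth limits most.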
